A study of Rattus norvegicus with 24 samples.

Results

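The transcripts of 6 genes of the myosin thick filament were followed in 2 rat muscles (Rattus norvegicus) at 3 ages. They are Myl1 and Myl3, which encode essential light chains of myosin, Myl2, a regulatory light chain, Mylk2, the kinase that phosphorylates the regulatory light chain in skeletal muscle, and Mybpc1 and Mybpc2, the slow and fast myosin-binding proteins C. The members were taken as every probe set (a handful of short probes read together as a single value) whose platform annotation named one of these symbols and no other gene. This gave 8 probe sets for the 6 genes, out of 8740 probe sets and 4736 named genes on the array, and all 8 passed the filter on low values. Myl2 had 3 probe sets and each of the other genes had 1.

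The extraocular muscles (EOM), the small muscles that move the eye, were taken from rats aged 6, 18 and 30 months. The extensor digitorum longus (EDL), a fast hindlimb muscle that extends the toes, was taken at the same 3 ages. Each of the 6 groups held 4 arrays, 24 in all, and per the series' design text each array's RNA was pooled from 4 animals and a group's replicates were independent of each other. Strain, sex and any treatment were not given in the sources used here, nor whether both muscles were taken from the same animals. Values are linear intensities in arbitrary units, called signal below, computed by the authors in Affymetrix software, per the design text. Because a probe set's brightness depends on its probes, levels were compared between arrays and never between genes. In whole muscle, fewer fibres of a type and less RNA per fibre cannot be told apart.

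Myosin is the motor of muscle, and each of its heavy chains carries an essential and a regulatory light chain around the neck that works as its lever arm. Myl3 and Myl2 encode the light chains typical of slow skeletal fibres and of the heart's ventricle, whereas Myl1 encodes light chains of fast fibres from alternative start sites of one gene. Phosphorylation of the regulatory light chain by Mylk2, activated by calcium and calmodulin, makes the heads more ready to bind actin, and the binding proteins C run along the thick filament, where they hold and tune the heads.

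The annotated genes lie on different chromosomes of the RefSeq assembly GRCr8. Myl1 spans chr9:75887224-75907696, Myl2 chr12:40114964-40126236, Myl3 chr8:119617077-119623215, Mylk2 chr3:161836705-161848609, Mybpc1 chr7:24817770-24903681 and Mybpc2 chr1:104130642-104154101. These spans are of the assembly and not of the array's probes. The RefSeq promoter table held 5 windows for 4 of the 6 genes, each of 300 bases with 250 before a transcript start and 50 after it. They are shown because Mybpc1, Mybpc2 and Myl3 were the members with the clearest lower signal in EOM that the table holds, and because the start sites of Myl1, 9897 bases apart, give different light chains. Sequences run 5′ to 3′ on the gene's strand, and capitals mark matches to 4 motifs searched on both strands. The motifs were the E-box (CANNTG), to which myogenic factors bind, the TATA box (TATAAA), the MEF2 site and the CArG box.
Mybpc1, chr7:24903324-24903623, minus strand: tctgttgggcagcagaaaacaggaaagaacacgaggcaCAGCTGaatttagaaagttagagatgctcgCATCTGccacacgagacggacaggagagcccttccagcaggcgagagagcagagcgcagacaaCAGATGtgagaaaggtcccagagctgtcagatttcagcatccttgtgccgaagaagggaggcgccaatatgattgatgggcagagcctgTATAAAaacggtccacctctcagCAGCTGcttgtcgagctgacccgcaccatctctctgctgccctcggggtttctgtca
Mybpc2, chr1:104154052-104154351, minus strand: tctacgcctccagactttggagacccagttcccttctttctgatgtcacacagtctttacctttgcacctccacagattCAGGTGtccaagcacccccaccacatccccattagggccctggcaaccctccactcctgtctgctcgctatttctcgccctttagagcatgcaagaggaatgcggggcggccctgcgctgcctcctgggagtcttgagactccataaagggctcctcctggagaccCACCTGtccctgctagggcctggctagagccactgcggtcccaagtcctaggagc
Myl3, chr8:119616844-119617143, plus strand: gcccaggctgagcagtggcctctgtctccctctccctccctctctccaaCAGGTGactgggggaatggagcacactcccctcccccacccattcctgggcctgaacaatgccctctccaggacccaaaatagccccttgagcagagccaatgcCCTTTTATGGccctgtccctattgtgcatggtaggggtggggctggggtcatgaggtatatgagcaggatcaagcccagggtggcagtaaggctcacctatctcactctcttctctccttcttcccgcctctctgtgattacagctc
Myl1, upstream start, chr9:75907647-75907946, minus strand: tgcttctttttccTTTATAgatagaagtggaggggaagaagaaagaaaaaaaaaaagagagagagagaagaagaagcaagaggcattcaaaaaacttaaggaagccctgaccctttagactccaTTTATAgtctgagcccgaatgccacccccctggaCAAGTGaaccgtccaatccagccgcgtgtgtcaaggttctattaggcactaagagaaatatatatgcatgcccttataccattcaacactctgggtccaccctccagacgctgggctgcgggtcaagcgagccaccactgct
Myl1, internal start, chr9:75897750-75898049, minus strand: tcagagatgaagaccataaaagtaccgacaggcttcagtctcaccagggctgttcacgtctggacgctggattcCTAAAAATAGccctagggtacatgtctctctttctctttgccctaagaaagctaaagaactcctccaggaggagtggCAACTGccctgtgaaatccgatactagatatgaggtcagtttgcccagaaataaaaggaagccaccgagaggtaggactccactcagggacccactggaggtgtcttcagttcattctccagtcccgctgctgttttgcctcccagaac

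The Mybpc1 window held 4 E-boxes and a TATA box whose first base lay 30 bases upstream of the start, and the Mybpc2 window held 2 E-boxes. The Myl3 window held 1 E-box and a CArG box 97 bases upstream. Each Myl1 window held 1 E-box, the upstream one also had 2 TATA box matches on the opposite strand, and the internal one had a MEF2 site 176 bases upstream. No match overlapped another. Of all 33469 windows in the table, 72.1% held an E-box, 14.2% a TATA box, 1.87% a MEF2 site and 1.64% a CArG box. These matches describe the letters of the windows and say nothing of binding in these muscles.

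The labelled tissues carried their markers. Myh13, the extraocular myosin heavy chain, lay between 10670 and 19960 units in EOM, against 19.9 to 175.3 units in EDL. The summed signal of 7 skeletal muscle markers lay between 114200 and 193100 units in EOM, against 157600 to 290000 units in EDL, and all 7 were lower in EOM. All 4 smooth muscle markers and all 5 nerve and Schwann cell markers tested were higher in EOM, with summed signals of 3419 to 9493 and 4627 to 7029 units, against 1450 to 3430 and 841.7 to 1865 units in EDL. Of 5 fibroblast markers, Lum, Dcn and Col3a1 were higher in EOM (log2 2.21, 0.85 and 0.88) and 2 were not called, with summed signals of 14490 to 45250 units in EOM, against 9186 to 36000 units in EDL. The part of these markers in the results below was not tested. Within a group, the median Spearman correlation of an array with the others was 0.944 to 0.962 in EOM and 0.873 to 0.94 in EDL. In EDL at 6 months, replicates 2 and 3 stood apart from the other EDL arrays in several genes below. Differences of single members that rest on them are therefore also given without them, but ratios and gene lists are not.

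Compared with EDL, EOM had less signal of 5 of the 6 genes, and the exception was the regulatory light chain Myl2. Averaged over ages, Myl3 was 2.91-fold lower, Mybpc2 2.82-fold, Mylk2 2.57-fold, Mybpc1 2.17-fold and Myl1 1.37-fold. Without replicates 2 and 3 of EDL at 6 months the order changed, with log2 differences of -1.56 for Mybpc2, -1.49 for Mylk2, -1.24 for Myl3, -1.19 for Mybpc1 and -0.52 for Myl1, all still called. Over the 3 ages, 5 of the 8 probe sets passed the test as lower and 0 as higher, where 42.3% of the 5741 probe sets tested were called in either direction. A probe set is called here at an adjusted p under 0.05 in limma's moderated test over all probe sets. The median over the 6 genes was a log2 difference of -1.24, beside -0.06 over all probe sets tested. At 6, 18 and 30 months 5, 5 and 4 of the 8 were called lower, where 17.9%, 23.4% and 19.2% of all were called in either direction. Among the 5741, those called lower numbered 361, 531 and 447 at these ages, and 1148 over the 3 ages. For Myl3, Mylk2, Mybpc1 and Mybpc2 all 4 EOM arrays lay below all 4 EDL arrays at every age. Of all probe sets tested, 9.28% had muscles that did not overlap at any age in one direction, 366 of them higher and 167 lower in EOM.

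**Figure D1:**
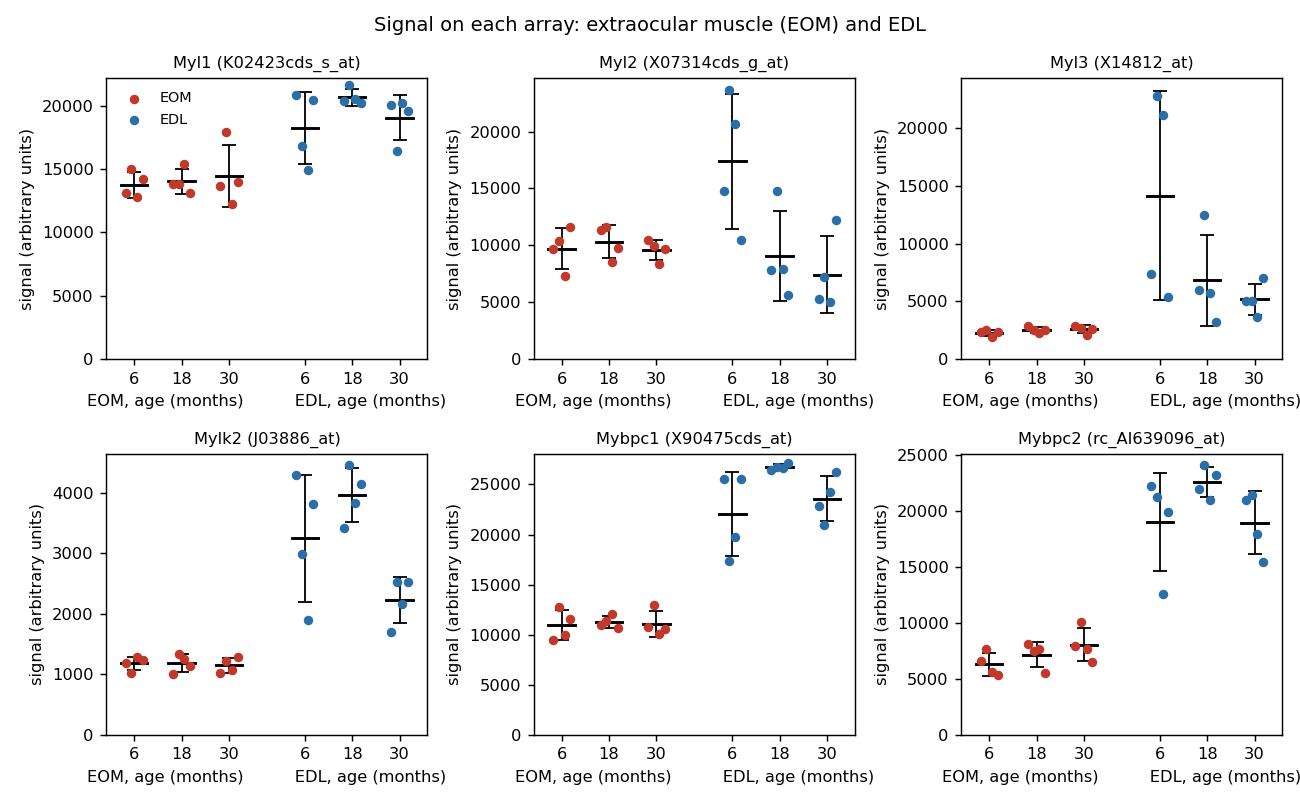
Signal in arbitrary units (vertical axes, linear from 0) of the 6 genes, each by its brightest probe set, in EOM (red, left) and EDL (blue, right) at 6, 18 and 30 months (horizontal axes). Points are the 4 arrays of a group in replicate order, and black bars are the mean ± SD; EOM arrays lie below EDL arrays at each age for Myl3, Mylk2, Mybpc1 and Mybpc2, while for Myl2 the muscles overlap at each age.

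Myl1 encodes the fast essential light chains and was read by 1 probe set (K02423cds_s_at), whose name marks a set that may read more than one transcript, so the products of its start sites were not told apart. In EOM its signal was 13070, 15013, 12771 and 14194 units at 6 months, 13823, 13837, 15435 and 13074 at 18 months, and 13688, 17927, 12264 and 13994 at 30 months. In EDL it was 20841, 16810, 14915 and 20435 units at 6 months, 20353, 21670, 20519 and 20178 at 18 months, and 20016, 16399, 20175 and 19573 at 30 months. The muscles did not overlap at 18 months, but they did at 6 and 30 months, where the highest EOM array exceeded the lowest EDL array. The log2 difference was -0.45 over the ages (SE 0.078, adjusted p = 4.17e-05), and -0.40, -0.56 and -0.41 at 6, 18 and 30 months, all called. The calls at 6 and 30 months were narrow (adjusted p = 0.0422 and 0.0358). Both were lost without certain single arrays. At 6 months these were EDL replicate 1, 2 or 4 and EOM replicate 1, 3 or 4 (adjusted p = 0.0517 to 0.143). At 30 months they were replicate 1, 3 or 4 of EDL or EOM (0.0744 to 0.115). Without both EDL replicates 2 and 3 at 6 months the 6-month call was kept (log2 -0.59, adjusted p = 0.00858). With the replicate number as a block both calls were kept (0.0202 and 0.0165).

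Myl3 encodes the slow essential light chain and was read by X14812_at. In EOM its signal was 2345, 2535, 1906 and 2307 units at 6 months, 2860, 2518, 2249 and 2517 at 18 months, and 2910, 2703, 2130 and 2614 at 30 months. In EDL it was 7386, 22796, 21201 and 5347 units at 6 months, 5973, 12473, 5749 and 3205 at 18 months, and 5005, 5011, 3680 and 7007 at 30 months. The EOM arrays lay in a narrow band, 1.53-fold from lowest to highest over all ages, whereas the EDL arrays spanned 7.11-fold, with replicates 2 and 3 at 6 months on top. Myl3 was 5.20-fold lower in EOM at 6 months (log2 -2.38, SE 0.37, adjusted p = 3.91e-05) and 2.41-fold lower at 18 months (log2 -1.27, adjusted p = 0.0129). At 30 months it was 1.96-fold lower and missed the threshold (log2 -0.97, 95% confidence interval -1.73 to -0.21, adjusted p = 0.0652), although the arrays did not overlap. Without replicates 2 and 3 of EDL at 6 months the difference at 6 months was -1.47 (adjusted p = 0.00254), smaller in size than those of Mylk2 (-1.78) and Mybpc2 (-1.75) on the same arrays. The call at 18 months was lost without EDL replicate 2 (adjusted p = 0.0722).

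Myl2, the slow and ventricular regulatory light chain, was the member whose mean difference between the muscles was not called. By its brightest probe set (X07314cds_g_at), its EOM signal was 9657, 10336, 7259 and 11601 units at 6 months, 11374, 11588, 8531 and 9795 at 18 months, and 10435, 9900, 8367 and 9635 at 30 months. In EDL it was 14739, 23685, 20704 and 10479 units at 6 months, 7809, 14756, 7952 and 5666 at 18 months, and 5289, 7181, 5014 and 12251 at 30 months. The muscles overlapped at each age, with most EDL arrays above EOM at 6 months and most below it at 30 months. The log2 difference over the ages was -0.02 (95% confidence interval -0.35 to 0.31, adjusted p = 0.931), and by age it was -0.79, 0.27 and 0.46 (adjusted p = 0.0503, 0.545 and 0.284). The labels do not say what the replicate numbers mark, but same-numbered arrays deviated together at 6 months (median r = 0.178, lowest 0.134). With the number as a block in limma, Myl2 was called lower in EOM at that age (adjusted p = 0.0301 by this probe set and 0.0319 by M11851_at). Without EDL replicates 2 and 3 its difference at 6 months was -0.38 (adjusted p = 0.512), and without EDL replicate 4 at 6 months all 3 probe sets were called lower at that age (adjusted p = 0.00727 to 0.0142).

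The other 2 Myl2 probe sets also spread more widely in EDL than in EOM. X07314cds_at, made from the same source sequence, lay between 7025 and 11593 units in EOM, against 4298 to 24140 units in EDL. M11851_at, made from another, lay between 2102 and 3353 units in EOM, against 1573 to 10965 units in EDL. On all 3, replicates 2 and 3 of EDL at 6 months were the brightest of the 24 arrays. The log2 difference over the ages was 0.07 by X07314cds_at (adjusted p = 0.792) and -0.30 by M11851_at (adjusted p = 0.267), so the 3 probe sets differ in sign and none was called.

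Mylk2, which phosphorylates the regulatory light chain, had even signal in EOM (probe set J03886_at), 1.32-fold from lowest to highest over all ages. It was 1183, 1026, 1285 and 1228 units at 6 months, 1010, 1335, 1260 and 1138 at 18 months, and 1020, 1222, 1063 and 1288 at 30 months. In EDL it was 4284, 2991, 1895 and 3816 units at 6 months, 3418, 4463, 3830 and 4142 at 18 months, and 1706, 2527, 2159 and 2517 at 30 months. The muscles did not overlap at any age, and the gap was widest at 18 months, when the EDL arrays were highest. Mylk2 was 2.64-fold lower in EOM at 6 months, 3.34-fold at 18 and 1.92-fold at 30 months (log2 -1.40, -1.74 and -0.94, SE 0.19 each, adjusted p = 9.09e-06, 3.64e-07 and 0.00107).

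Mybpc1, the slow-type binding protein C, had steady signal in both muscles (probe set X90475cds_at). In EOM it was 9501, 12734, 9944 and 11592 units at 6 months, 10952, 11341, 12078 and 10656 at 18 months, and 10715, 12922, 10030 and 10534 at 30 months. In EDL it was 25584, 17334, 19743 and 25498 units at 6 months, 26486, 26730, 26678 and 27142 at 18 months, and 22806, 20994, 24210 and 26271 at 30 months. The lowest EDL arrays were replicates 2 and 3 at 6 months, which were the highest for Myl2 and Myl3. Mybpc1 was 2.00-fold, 2.38-fold and 2.14-fold lower in EOM at 6, 18 and 30 months (SE 0.14 each on the log2 scale, adjusted p = 8.79e-06, 3.32e-07 and 2.85e-06).

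Mybpc2, the fast-type binding protein C, was read by rc_AI639096_at. In EOM its signal was 6628, 7627, 5650 and 5348 units at 6 months, 8086, 7471, 7648 and 5489 at 18 months, and 7939, 10055, 7636 and 6522 at 30 months. In EDL it was 22276, 21233, 12572 and 19951 units at 6 months, 21989, 24153, 21035 and 23226 at 18 months, and 21009, 21455, 17928 and 15437 at 30 months. The brightest EOM array, replicate 2 at 30 months, stayed below the dimmest EDL array, replicate 3 at 6 months. Mybpc2 was 2.97-fold, 3.18-fold and 2.37-fold lower in EOM at 6, 18 and 30 months (log2 -1.57, -1.67 and -1.24, SE 0.18 each, adjusted p = 6.38e-07, 2.38e-07 and 2.02e-05).

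**Figure D2:**
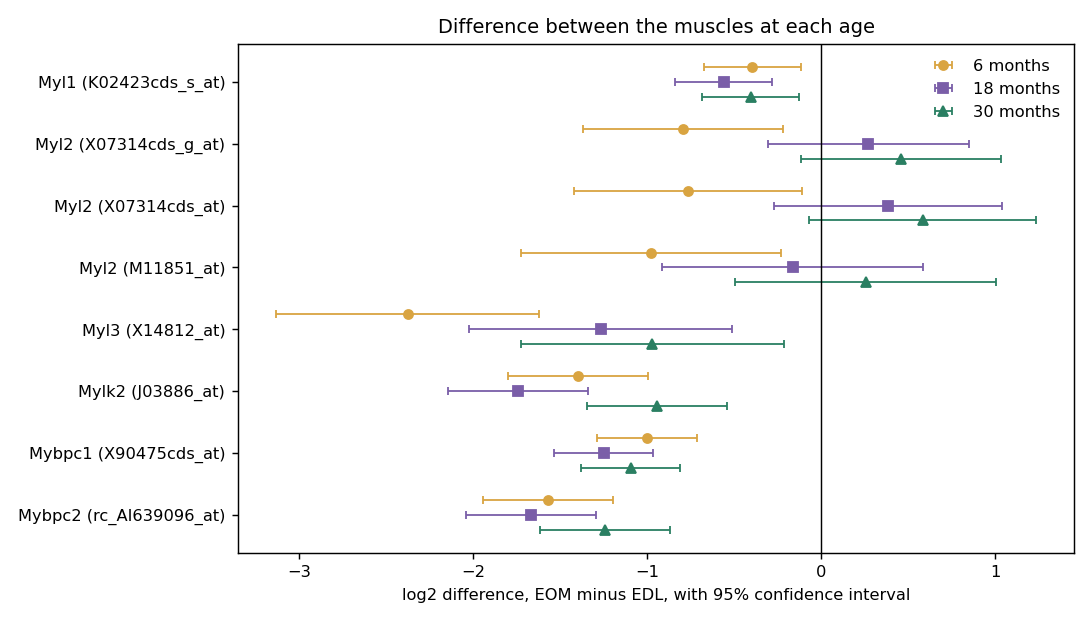
Log2 difference of signal, EOM minus EDL (horizontal axis), for each of the 8 probe sets (rows) at 6 months (circles), 18 months (squares) and 30 months (triangles), with 95% confidence intervals from limma. Intervals of Myl1, Myl3, Mylk2, Mybpc1 and Mybpc2 lie below 0 at each age, while those of all 3 Myl2 probe sets include 0 at 18 and 30 months. The intervals are not adjusted over probe sets, and Myl3 was not called at 30 months.

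The members were also compared in pairs. Within each array, the ratio of Myl2 to Myl3 was taken on the log2 scale, which removes the array's overall brightness. The mean log2 ratio was 2.08, 2.02 and 1.89 in EOM at 6, 18 and 30 months, with SDs of 0.17, 0.13 and 0.057, against 0.50, 0.48 and 0.46 in EDL, with SDs of 0.56, 0.25 and 0.30 (n = 4 each). The shift toward Myl2 in EOM was 3.00-fold, 2.91-fold and 2.69-fold, with no overlap of arrays at any age. Its size depended on the Myl2 probe set, being 3.06-fold, 3.14-fold and 2.94-fold by X07314cds_at and 2.64-fold, 2.15-fold and 2.34-fold by M11851_at, again with no overlap. With 4 against 4 arrays the smallest p that an exact two-sided permutation test allows is 0.0286, which each of the 3 reached, and after adjustment over 12 such tests each had 0.0686, so none passed.

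The ratio of Mybpc2 to Mybpc1 was lower in EOM than in EDL, with log2 differences of -0.57, -0.42 and -0.15 at 6, 18 and 30 months, with arrays that did not overlap at 18 months only (exact permutation p = 0.0571, 0.0286 and 0.514, adjusted 0.0857, 0.0686 and 0.514). The ratio of Myl1 to Myl3 was higher in EOM by 1.98 at 6 months, without overlap, and by 0.71 and 0.57 at 18 and 30 months, with overlap (adjusted exact permutation p = 0.0686, 0.137 and 0.114). At 6 months the SD of this ratio was 1.28 in EDL, against 0.11 in EOM. Replicates 2 and 3 of EDL had the highest Myl3 signal there. They also enter the 6-month ratio of Myl2 to Myl3, and no ratio was computed without both of them. The ratio of Myl1 to Myl2 differed in sign by age, with 0.40, -0.83 and -0.86 in EOM against EDL and overlap at each age (adjusted exact permutation p = 0.405, 0.0857 and 0.0857). None of these passed the threshold.

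Among the 12 EDL arrays Myl2 and Myl3 were high or low together. Pearson's r of their log2 signals was 0.923 and Spearman's rho 0.951 (permutation p = 2e-05 and 3e-05, adjusted p = 0.0006 and 0.0009 over 30 relations, namely 15 pairs of members in each muscle). It was 0.852 without the 2 arrays farthest from the median of Myl2 and 0.888 with the age means removed. In EOM, where both genes moved little, r was 0.733 (rho 0.566, permutation p = 0.00707 and 0.0581, adjusted p = 0.053 and 0.226). Myl1 and Mybpc1 also varied together, with r = 0.873 in EOM (rho 0.895, permutation p = 5e-05 and 0.00025, adjusted p = 0.00075 and 0.00375) and 0.847 in EDL (rho 0.734, permutation p = 0.00271 and 0.0088, adjusted p = 0.0271 and 0.0528). Without the 2 farthest arrays these were 0.881 in EOM and 0.89 in EDL. In EDL, Myl1 with Mylk2 (rho 0.804) and Mylk2 with Mybpc2 (rho 0.783) passed by rank (adjusted permutation p = 0.0239 and 0.0288). Their r of 0.55 and 0.641 did not pass (adjusted permutation p = 0.185 and 0.11). Both genes of a pair come from the same array and share its scaling, and 3 arrays of a muscle per replicate number are too few for a value within a number.

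**Figure D3:**
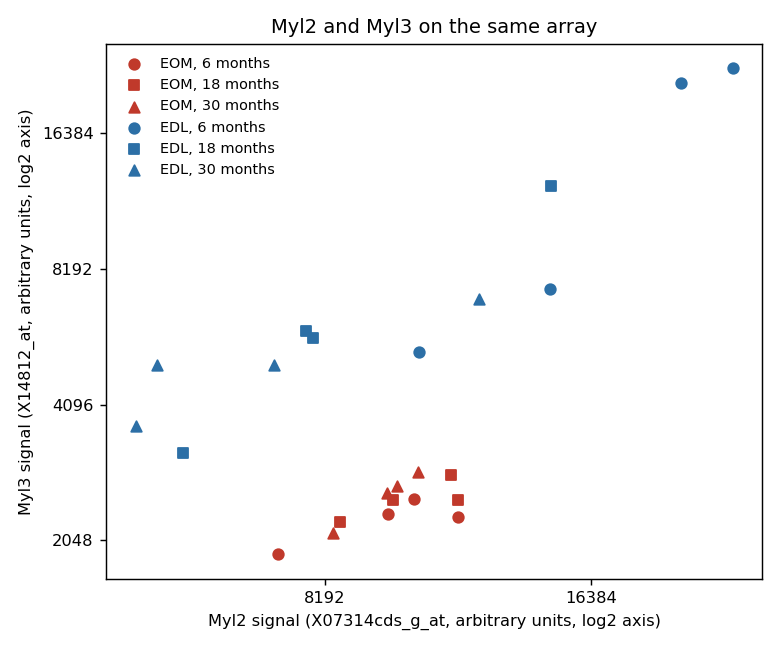
Myl3 signal (vertical, log2 axis) against Myl2 signal (horizontal, log2 axis), in arbitrary units, on each array of EOM (red) and EDL (blue) at 6 months (circles), 18 months (squares) and 30 months (triangles). The 12 EDL arrays run along a rising line with a pair of 6-month arrays at the top right, and the 12 EOM arrays form a compact group below them at middling Myl2 signal.

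Replicates 2 and 3 of EDL at 6 months were singled out after the values were seen, because Myl2 and Myl3 were highest there, and several genes of slow fibres stood high on them too. On these arrays, Tnni1, the slow troponin I, had 11925 and 11801 units, against 1097.8 to 4517.9 units on the other 10 EDL arrays. Atp2a2, the slow and cardiac calcium pump, had 17024 and 18143 units there, against 2670.8 to 8524.7 units on the other 10. Myh7, the slow myosin heavy chain, had 32183 and 30415 units, against 4491.9 to 16034 units, by a probe set that can read other heavy chains. Of the 10 slow-fibre genes tested, 5 had both arrays above the other 10, where 2.77% of the probe sets tested lay above and 1.99% below. Mybpc1 lay below on both arrays, with 17334 and 19743 units against 20994 to 27142, as did Atp2a1, the fast calcium pump. Of 16 fast-fibre genes, 1 exceeded its own EDL median on each of the arrays, and the list's median deviation from those medians was -0.20 and -0.47 on the log2 scale, beside 0.70 and 1.57 for the slow-fibre list. The beta-actin signal at the 3′ end over that at the 5′ end, which rises as RNA degrades, was 3.54 and 1.51 on these arrays, against 1.14 to 2.54 on the other 10, and its part was not tested.

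**Figure D4:**
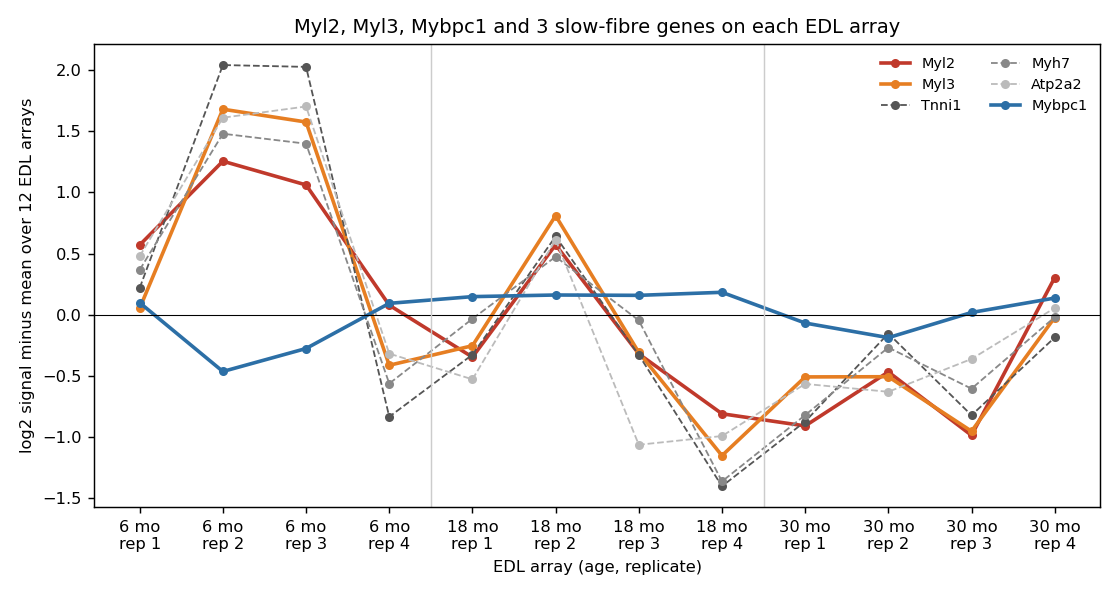
Log2 signal minus the mean over the 12 EDL arrays (vertical axis) on each EDL array, by age and replicate (horizontal axis), for Myl2, Myl3 and Mybpc1 (thick lines) and the slow-fibre genes Tnni1, Myh7 and Atp2a2 (dashed); lines only join the points of a gene. Myl2, Myl3 and the slow-fibre genes peak on replicates 2 and 3 at 6 months, where Mybpc1 is lowest.

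With age, the members called in EDL were Myl2 and Mylk2, and both lost their calls without certain arrays, as given below. No member was called in EOM. Between 30 and 6 months in EDL, 2 of the 8 probe sets were called, both of Myl2 and both lower, where 1.86% of all probe sets were called. Myl2 averaged 7434 ± 3353 units at 30 months and 17402 ± 5927 units at 6 months by its brightest probe set (SD, n = 4 each), a 2.39-fold fall with overlapping arrays (log2 -1.26, SE 0.28, adjusted p = 0.0128). X07314cds_at fell by 1.39 (adjusted p = 0.0157), and M11851_at had -1.27 (adjusted p = 0.0812, and 0.0352 with the replicate number as a block, a pairing taken from the data). Over all probe sets, 172 were called with the block and 107 without it. Myl3 averaged 5176 ± 1372 units at 30 months and 14183 ± 9087 units at 6 months (SD, n = 4 each), with a log2 difference of -1.22 that was not called (adjusted p = 0.107).

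The Myl2 call was lost when certain arrays were left out. Without replicates 2 and 3 of EDL at 6 months, the log2 difference between 30 and 6 months was -0.84 by X07314cds_g_at, -0.79 by X07314cds_at and -0.25 by M11851_at (adjusted p = 0.311, 0.415 and 0.868). For Myl3 it was -0.32 without them (adjusted p = 0.861). Leaving out 1 array, X07314cds_g_at lost its call without replicate 2 of the 6-month group or replicate 1 or 3 of the 30-month group (adjusted p = 0.058 to 0.0743), and X07314cds_at also without replicate 3 of the 6-month or replicate 2 of the 30-month group (0.0537 to 0.0833). The log2 differences in these fits were -1.08 to -1.12 and -1.18 to -1.34. Without replicate 4 at 6 months all 3 Myl2 probe sets and Myl3 (adjusted p = 0.00939) were called lower at 30 months. The summed signal of 5 fibroblast markers in EDL was 9801 to 22530 units at 30 months, against 21750 to 36000 units at 6 months, and its part was not tested.

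Mylk2 fell in EDL between 18 and 30 months. It averaged 2227 ± 387 units at 30 months and 3963 ± 446 units at 18 months (SD, n = 4 each), 1.79-fold lower with no overlap of arrays (log2 -0.84, SE 0.19, adjusted p = 0.0217). It was the 1 member probe set called in that comparison, where 1.55% of all probe sets were called. The call was lost without replicate 2 or 4 of the 18-month group (adjusted p = 0.0772 and 0.0716) or replicate 1 or 3 of the 30-month group (0.117 and 0.0501), and with arrays centred on their median (0.113), while the log2 difference stayed between -0.72 and -0.92. Against 6 months, when it averaged 3246 ± 1048 units, its 30-month difference of -0.50 was not called (adjusted p = 0.293), but without replicate 3 at 6 months, the lowest of that group, it was (adjusted p = 0.0159), as without replicates 2 and 3 (log2 -0.88, adjusted p = 0.00931). Between 18 and 6 months in EDL, limma called 0 of the 8 probe sets, where 0.279% of all were called. At an unadjusted p under 0.05 there were 5, and the share of all probe sets at that level was not computed. Without replicate 4 at 6 months 2 Myl2 probe sets were called lower at 18 months (adjusted p = 0.0112 and 0.0316).

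No member was called with age in EOM. limma called 0 of the 8 probe sets between 30 and 6, 18 and 6, or 30 and 18 months, where 0.0348%, 0.174% and 0.0174% of all probe sets were called, and 0 had an unadjusted p under 0.05 in any of the 3. With the replicate number as a block, a pairing taken from the data, 0 members were called. The count over all probe sets between 18 and 6 months was then 33, against 10 without the block. The largest mean shift was of Mybpc2, which averaged 6313 ± 1032, 7174 ± 1152 and 8038 ± 1476 units at 6, 18 and 30 months (SD, n = 4 each), and its log2 difference between 30 and 6 months was 0.35 (95% confidence interval -0.03 to 0.72). For Mylk2 the same interval was -0.44 to 0.36 and for Mybpc1 -0.27 to 0.30, so changes of about this size cannot be told from none with 4 arrays a group.

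Whether the age change differed between the muscles was tested by subtracting the EDL change of an age step from the EOM change. Between 30 and 6 months limma called 0 of the 8 member probe sets, where 0.192% of all probe sets were called. Of the 8, 4 had an unadjusted p under 0.05, a level at which the share of all probe sets was not computed. Those 4 were the 3 Myl2 probe sets, with 1.25, 1.35 and 1.24 (adjusted p = 0.424, 0.508 and 0.903), and Myl3 with 1.41 (adjusted p = 0.691). Without replicates 2 and 3 of EDL at 6 months they were 0.84, 0.75, 0.22 and 0.50 (adjusted p = 0.850, 0.945, 0.998 and 0.998). Between 18 and 6 months 0 members and 0% of all probe sets were called. Here 3 member probe sets had an unadjusted p under 0.05, again without a share of all probe sets. The fall of Myl2 in EDL between 30 and 6 months is therefore not shown to differ from EOM. For Mylk2, whose call was between 30 and 18 months, that step was not tested for a difference between the muscles.

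Other thick filament genes gave a mixed picture between the muscles. Of 34 listed genes of the thick filament and its regulation other than the members, 26 were on the array and 25 were tested, and over the ages 7 were called higher in EOM, 10 lower and 8 in neither direction, with a median of -0.33. Among heavy chains, Myh13, the extraocular chain, Myh8, the perinatal chain, and Myh3, the embryonic chain, were higher in EOM (log2 7.40, 7.25 and 3.89), while the adult fast chains Myh1, Myh2 and Myh4 were lower (-1.42, -0.77 and -0.34). The fast regulatory light chain Myl11 was slightly lower in EOM (log2 -0.42 with an SE of 0.16, adjusted p = 0.04), and the embryonic and atrial essential light chain Myl4 was not called (0.39, adjusted p = 0.141). The light chains Myl9, of smooth muscle, Myl12b, of non-muscle myosin, and Myl6b, of non-muscle and slow muscle myosin, were higher in EOM (1.04, 0.80 and 0.75), alongside the smooth muscle markers given above, whose part was not tested. Upstream of the regulatory light chain, Calm2, a calmodulin gene, and Ppp1cb, the catalytic subunit of myosin light chain phosphatase, were lower in EOM (-0.54 and -1.10), and the phosphatase's targeting subunit Ppp1r12a was not called (-0.28). The kinase Mylk2 and the phosphatase subunit that acts on the same chain were both lower.

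Of 16 fast-fibre genes tested, all 16 were lower in EOM over the ages (median -0.57). Beside this, the members had -1.54 for Myl3, -1.49 for Mybpc2, -1.36 for Mylk2, -1.12 for Mybpc1, -0.45 for Myl1 and -0.02 for Myl2. No test compared these with the list. Of 10 slow-fibre genes, 4 were higher, among them Tpm3, a slow tropomyosin (1.06), 3 were lower, among them Actn2 (-1.13), and 3 were not called, namely Myh7 (-0.31), Tnni1 (0.02) and Atp2a2 (0.46), with a median of 0.22. At 6 months, where Myl3 was lowest relative to EDL, 4 of the 10 were lower and 1 higher (median -0.63). Myh7 was among those called lower (-1.06, adjusted p = 0.0316), by a probe set that can read other heavy chains. Its signal at 6 months was 14896, 32183, 30415 and 7818 units in EDL, against 9272, 9659, 8047 and 8333 units in EOM. The high values are of EDL replicates 2 and 3, and EDL replicate 4 lay below all EOM arrays. The list is not given without replicates 2 and 3.

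**Figure D5:**
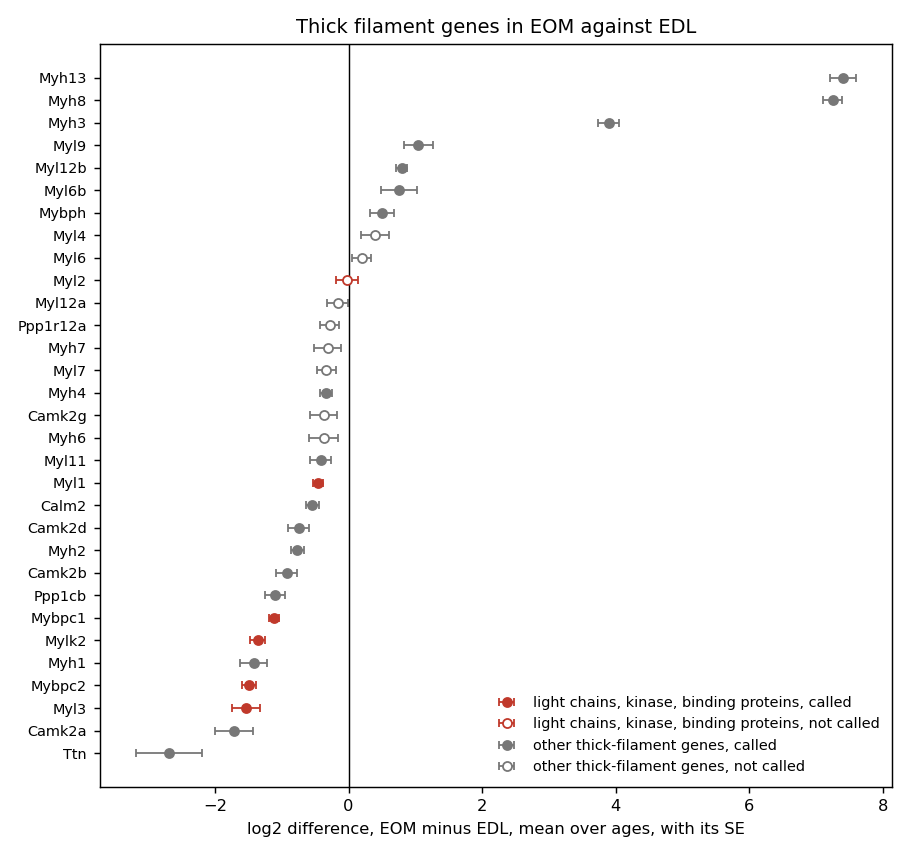
Log2 difference, EOM minus EDL, as the mean over ages with its SE (horizontal axis) for the 6 genes (red) and 25 other genes of the thick filament and its regulation (grey), sorted by value; filled points passed the test and open points did not. Myh13, Myh8 and Myh3 lie far to the right, Myl2 lies near 0, and Mybpc1, Mylk2, Mybpc2 and Myl3 lie below -1.

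With age in EDL, Mybph, the binding protein H related to the binding proteins C, was the 1 listed thick filament gene called between 30 and 6 months. Its signal was 5788, 2575, 1629 and 1601 units at 30 months, against 367.9, 863.1, 782.7 and 453.2 units at 6 months. All 30-month arrays lay above the 6-month ones, with replicate 1 highest (log2 2.11, SE 0.31, adjusted p = 1.69e-04). Against 18 months, Mybph and Myh3 were called higher at 30 months (2.17 and 1.61, adjusted p = 1.49e-04 and 7.26e-04), while Mybpc1 and Mybpc2 had -0.19 and -0.26 and were not called (adjusted p = 0.763 and 0.738).

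The genes with the most similar pattern were found by the root mean square difference between their 6 group means and a member's, each centred on its own mean, on the log2 scale. For Myl2 the closest were Tnni1 (0.0969) and Dnaja4 (0.117), and for Myl3 Homer2 (0.196) and Slc27a2 (0.26). For Myl1 they were Dnaja3 (0.0215) and Dnaja2 (0.0297), for Mylk2 Acsl6 (0.107) and Agtpbp1 (0.113), for Mybpc1 Pgm1 (0.0441) and Ldb3 (0.0539), and for Mybpc2 Fez2 (0.0912) and Cacng1 (0.106). The likeness is over 6 groups only and is a description.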

How the data were processed

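Muscle RNA was measured on 24 Affymetrix Rat Genome U34 arrays, 4 in each of 6 groups of muscle and age. The authors deposited intensities on a linear scale, made with Affymetrix Microarray Suite (MAS5) per the design text and the submitters' processing notes. A mean trimmed by 2% on each side was nearly equal on every array (494.9 to 498.0 units), so no further scaling was done. Although Cy dyes appear in the labels, the design text describes biotinylated RNA and each array has a single column of values, so 1-colour arrays were assumed. The number of arrays limits the precision.

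From 8799 probe sets, 59 controls were removed. Names came from the platform annotation (7006 probe sets with 1 symbol, 308 with several and 1426 with none). Values under an array's 25th percentile (21.4 to 34.5 units) were set to it before log2 was taken, and probe sets above the 40th percentile on at least 3 of 4 arrays of a group were tested, 5741 in all. Every member value, the lowest being 1010.4 units, lay far above that floor. A model of 6 group means was fitted with limma 3.58.1 in R 4.3.3 (eBayes with an intensity trend, 18 residual degrees of freedom), and two-sided p-values were adjusted by Benjamini-Hochberg over all probe sets tested. The fit was tested on simulated data. All groups share 1 estimate of spread, although EDL arrays varied more than EOM arrays, so EDL p-values may be too small and EOM p-values too large. Ratios within arrays had exact permutation tests and correlations 100000 permutations (scipy 1.17.1).

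The members and the gene lists were chosen with earlier results of these data known. All 6 members were named, with the genes of the lists and the 2 genes most like each member. Same-numbered arrays deviated together from their group means (median r = 0.284 over 60 pairs, beside -0.117 over 180 pairs of unequal numbers, and 22 of 24 arrays were closest to their own number). Every pair was over 0.1 for EOM against EDL at 6 months, for 30 against 6 months in EDL and for the 3 age comparisons in EOM, so the numbers were taken to pair those samples, from the data and not from the labels. Alternatives were another floor, pseudocount, filter, normalisation or variance model, array weights, the replicate number as a block, only the groups compared, and each array left out. Promoter windows are RefSeq's for GRCr8. Neither detection calls nor scanner files were used here.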

Additional observations from a re-analysis of the deposited data

Results flagged for a closer look

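Within groups, 2 of the 48 sets of 4 values (8 probe sets in 6 groups) held an array far from the other 3 by Dixon's test at the 95% level, and chance alone flags about 1 in 20 groups. Myl1 had 16398.5 units in replicate 2 of EDL at 30 months, against 19573.3 to 20175 units in the other 3 arrays (ratio 0.841). Myl2 had 10571.0 units by X07314cds_at in replicate 4 of EDL at 30 months, against 4766.4 to 5491.2 units in the other 3 (ratio 0.875). The same array was also the highest of its group for the other Myl2 probe sets (12251 and 3353 units) and for Myl3 (7007 units).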

How the results depend on the processing

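There were 96 member results (8 probe sets in 12 comparisons) and 2024 values under alternatives. Of these values, 1963 kept their side of the threshold, 42 lost the call and 19 gained one. A reversal was counted only where the result was called in at least 1 of the fits compared, and there were 0. Uncalled results could change sign, as M11851_at of Myl2 did between 18 and 6 months in EDL (log2 -1.24 to 0.15). Mylk2, Mybpc1 and Mybpc2 were called lower in EOM at each age under every alternative. Lost or gained calls were of Myl1 at 6 and 30 months (quantile normalisation gave adjusted p = 0.676 and 0.18, median centring 0.144 and 0.25), Myl2, Myl3 and Mylk2. The cause of the changes below was not tested, and leaving out arrays or groups also lowers the number of samples.

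Of the members, 0 were called between 30 and 18 months in EDL with median centring, and 0 between 30 and 6 months in EDL with array weights or only the groups compared. An alternative chosen after seeing the data left out replicates 2 and 3 of EDL at 6 months. It gave 1 member (Mylk2) between 30 and 6 months in EDL, and over all probe sets 6 between 18 and 6 months in EDL and 26 for the interaction of 30 and 6 months.

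Counts over all probe sets moved in the small comparisons. Without a floor (log2 of value + 32) they were 1 for EOM 30 against 6 and 3 for EOM 30 against 18 months, and with the floor at the 10th percentile 0 for EOM 30 against 6 and 2 for EOM 18 against 6 months. The stricter filter gave 1 for EOM 30 against 6 and 0 for 30 against 18 months. Quantile normalisation gave 1 for EOM 30 against 6, 18 for EOM 18 against 6 and 1 for the interaction of 18 and 6 months. Median centring gave 51 for EDL 30 against 18, 1 for EOM 30 against 6, 25 for EOM 18 against 6, 2 for EOM 30 against 18 and 1 for that interaction. Without the trend there were 5 for EDL 18 against 6, 3 for EOM 30 against 18 and 1 for that interaction. Array weights gave 4 for EDL 18 against 6, 4 for EOM 30 against 6, 44 for EOM 18 against 6, 3 for EOM 30 against 18 and 3 for that interaction. Only the groups compared gave 30 for EDL 30 against 6, 1 for EDL 18 against 6, 53 for EDL 30 against 18, 0 for EOM 30 against 6 and 30 for EOM 18 against 6 months.

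With the replicate number as a block (pairing), 172 were called for EDL 30 against 6, 35 for EDL 18 against 6, 147 for EDL 30 against 18, 33 for EOM 18 against 6, 3 for EOM 30 against 18, 34 for the interaction of 30 and 6 months and 1 for that of 18 and 6 months. The block also called Myl3 lower in EOM at 30 months (adjusted p = 0.0434). In that comparison the same-numbered pairs had a median r of 0.288, but not every pair was over 0.1 (lowest 0.0788), so they were not taken as paired by the rule used here. At 6 months the median was 0.178 and the lowest 0.134. Beside this and the calls given in the text, the block changed no member call.

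Leaving out 1 array gave 68 to 159 probe sets for EDL 30 against 6 (0 to 4 members), 3 to 80 for EDL 18 against 6 (0 to 2 members), 50 to 95 for EDL 30 against 18 (0 to 1 members), 0 to 3 for EOM 30 against 6, 1 to 5 for EOM 18 against 6, 1 to 12 for EOM 30 against 18, 8 to 27 for the interaction of 30 and 6 months and 0 to 3 for that of 18 and 6 months. The highest EDL counts against 6 months came without replicate 4 at that age. With 4 pools a group and a wide spread among EDL arrays, small age changes were not detectable.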
